A study of Mus musculus with 9 samples.

Results

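The feedback genes and Etv factors that ERK signalling switches on were followed in serum-starved mouse embryonic fibroblasts (MEFs) that differ in p27, the cell cycle inhibitor encoded by Cdkn1b. They are the ETS variant factors Etv1, Etv4 and Etv5, the MAP kinase phosphatases Dusp4, Dusp5 and Dusp6, and the signalling inhibitors Spry1, Spry2, Spry4 and Spred1. These 10 of 19937 named genes were chosen by symbol, and where a gene had more than 1 probe set the brightest over all 9 arrays was selected on its mean level, which decided the probe set of Etv1 and Etv5. The list was put together with earlier results of these same arrays known, among them the lower Etv1 and Dusp6 of KO cells. Their KO versus WT differences are therefore given without a test, and the other tests describe these arrays and are no independent evidence.

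The 9 Affymetrix arrays are 3 of MEFs titled p27CK (CK), 3 of MEFs titled p27KO (KO) and 3 of wild-type MEFs titled p27WT (WT). All cells had been grown in 10% serum before 72 h of serum withdrawal, a treatment that brings fibroblasts to rest. In published work p27CK is a p27 that cannot bind cyclins or their kinases. By these names CK cells would have a p27 protein and KO cells none, but protein was not measured here. The labels give the names only, and the protocol shared by all samples names wt or delta51 mice without saying which cells those are. Whether the arrays of 1 genotype stem from separate embryos or cultures is not in the labels, so p-values measure only the spread between these arrays, and genotype and culture cannot be told apart. Cdkn1b read 11.10 in CK, 7.38 in KO and 11.46 in WT on its brighter probe set (log2, means of 3). Its dimmer probe set read 7.08 in CK, 7.60 in KO and 7.43 in WT and did not show the lower KO level.

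The labelled cell type was checked against marker genes. Of 8 fibroblast markers, 8 in CK, 7 in KO and 8 in WT read at or above 7.24, the log2 level used as a filter on dim genes. The exception was Thy1, at 11.69 in CK, 7.14 in KO and 11.73 in WT. Cartilage markers moved with genotype: 2 of 6 reached that level in CK, 6 in KO and 3 in WT, and the mean of the 6 lay between 7.75 and 7.81 on CK arrays, between 10.44 and 10.90 on KO arrays and between 7.94 and 8.07 on WT arrays. Of 6 macrophage markers 2 reached the level in CK, 2 in KO and 1 in WT. Among them Cd68 averaged 8.59 in CK, 7.99 in KO and 10.64 in WT, and Lyz2 7.59, 8.83 and 6.90 in the same order, while the pan-leukocyte gene Ptprc stayed below 7.24 in every genotype. Of 6 endothelial markers none reached it in CK, 1 in KO and 1 in WT. In WT this was Tek, which averaged 8.77, against 6.51 in CK and 6.80 in KO. In KO it was Tie1, which only just reached the level at 7.24 and read 7.19 in CK and 7.21 in WT. Pecam1 was below 7.24 throughout. Of 6 epithelial markers 2 reached it in CK, 3 in KO and 2 in WT, among them Krt8 in every genotype and Cdh1, at 7.51, in KO. Of 6 skeletal muscle markers 2 reached it in every genotype (Actc1 and Acta1), as did 1 of 5 neural and glial markers (Mbp). Epcam, Myod1 and Sox10 stayed below it. The part that the cartilage genes, Thy1, Cd68, Lyz2 and Tek have in the results below was not tested.

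Growth factors bind receptor tyrosine kinases, which load Ras with GTP and start the RAF, MEK and ERK kinase relay. Active ERK enters the nucleus and turns on genes, and some of these feed back on the relay: Sprouty and Spred proteins act on Ras and RAF activation, and the DUSP phosphatases remove the activating phosphates from ERK itself. Etv1, Etv4 and Etv5 form the PEA3 group of ETS transcription factors, which are induced by FGF signalling in many embryonic tissues and carry part of its output. The repressor Capicua (Cic) holds Etv and several feedback genes down until ERK phosphorylates it.

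Promoter windows from RefSeq (GRCm38.p6; 250 bases before to 50 after the start site) were found for 7 of the 10 genes, 9 windows in all, since Etv1 and Etv5 have 2 each. Etv4, Dusp4 and Spry4 have no window here. The 9 windows were searched on both strands for the Capicua octamers TGAATGAA and TGAATGGA, the ETS site CCGGAAGT, the core GGAA inside it that ETS factors contact, and the AP-1 site TGANTCA. Neither octamer was found in any of the 9 windows, against 1.3% and 1.21% of 32851 windows of all genes. CCGGAAGT was found in 0 windows against 3.89%, and TGANTCA in 0 against 7.81%. The short core GGAA was found in 8 of 9, against 96% of all windows. The 6 letters shared by the Capicua octamers, TGAATG, were added to the search after the windows had been seen: they stood in 3 of 9 windows, against 12.7% of all. Those are the Dusp5 window, the Dusp6 window at position -133 from the start site, and the downstream Etv5 window at positions -242, -198 and, on the other strand, -129. A match is only a match of letters, and its absence says nothing of the factor outside these windows. Below are the windows of Etv1, the gene with the largest difference, those of Etv5 and Dusp6 that hold the shared letters, and that of Spry1, for comparison, with TGAATG or its reverse complement in capitals.
Etv1, chr12:38779832-38780131, plus strand: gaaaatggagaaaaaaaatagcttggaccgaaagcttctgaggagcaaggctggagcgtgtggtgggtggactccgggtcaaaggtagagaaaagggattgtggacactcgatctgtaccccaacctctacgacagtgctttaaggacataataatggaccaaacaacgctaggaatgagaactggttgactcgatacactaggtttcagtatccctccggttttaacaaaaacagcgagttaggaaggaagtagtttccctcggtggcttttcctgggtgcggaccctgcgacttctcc
Etv1, chr12:38783461-38783760, plus strand: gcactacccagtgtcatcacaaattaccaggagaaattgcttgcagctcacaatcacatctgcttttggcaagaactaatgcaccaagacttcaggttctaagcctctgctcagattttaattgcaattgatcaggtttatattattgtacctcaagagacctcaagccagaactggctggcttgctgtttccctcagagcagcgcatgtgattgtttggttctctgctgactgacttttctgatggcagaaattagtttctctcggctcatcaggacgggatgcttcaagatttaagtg
Etv5, chr16:22438319-22438618, minus strand: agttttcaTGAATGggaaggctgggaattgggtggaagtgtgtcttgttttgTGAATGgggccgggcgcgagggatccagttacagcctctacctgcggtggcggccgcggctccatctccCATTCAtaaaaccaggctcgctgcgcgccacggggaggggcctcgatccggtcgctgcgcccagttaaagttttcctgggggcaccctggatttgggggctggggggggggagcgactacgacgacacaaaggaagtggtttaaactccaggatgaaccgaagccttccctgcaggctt
Dusp6, chr10:99262981-99263280, plus strand: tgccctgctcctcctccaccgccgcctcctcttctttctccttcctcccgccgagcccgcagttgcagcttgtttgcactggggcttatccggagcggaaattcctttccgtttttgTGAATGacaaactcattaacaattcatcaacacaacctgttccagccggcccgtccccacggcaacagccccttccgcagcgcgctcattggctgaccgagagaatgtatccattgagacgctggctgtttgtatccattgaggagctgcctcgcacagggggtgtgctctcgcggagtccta
Spry1, chr3:37639697-37639996, plus strand: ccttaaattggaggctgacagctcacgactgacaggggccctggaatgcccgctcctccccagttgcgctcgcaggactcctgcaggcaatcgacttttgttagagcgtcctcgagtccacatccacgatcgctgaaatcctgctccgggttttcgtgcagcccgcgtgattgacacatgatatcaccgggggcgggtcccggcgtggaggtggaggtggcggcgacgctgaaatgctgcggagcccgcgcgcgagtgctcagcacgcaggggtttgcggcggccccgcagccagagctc

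**Figure D1:**
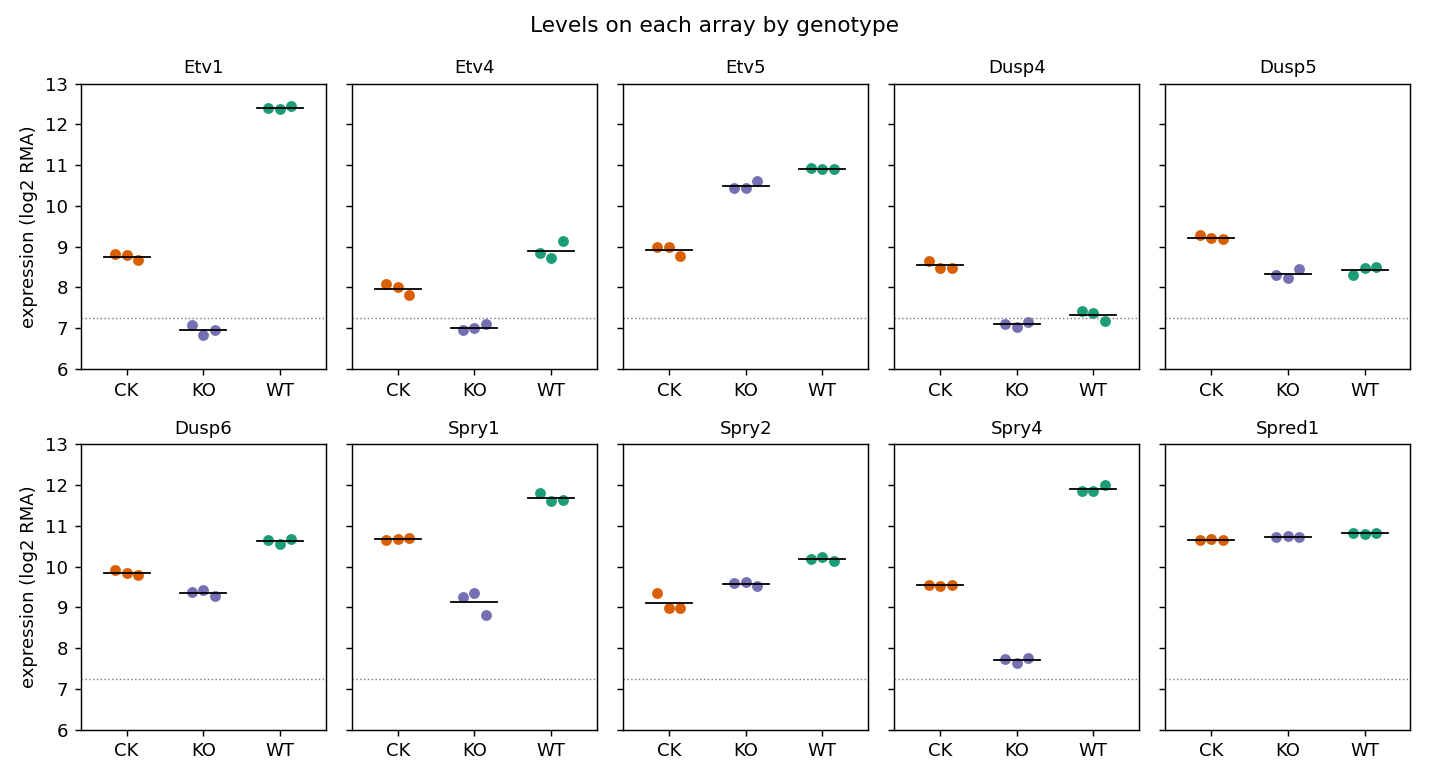
Level on each array (points, log2 RMA) of the 10 genes in CK, KO and WT cells, with the mean of 3 arrays as a line and the filter level of 7.24 dotted; levels are not comparable between genes. WT arrays were highest for 8 genes, whereas for Dusp4 and Dusp5 the CK arrays were highest.

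Etv1 was the most genotype-dependent of the 10. On its brightest probe set, 10406934, CK arrays read 8.81, 8.80 and 8.66, KO arrays 7.08, 6.82 and 6.96, and WT arrays 12.39, 12.39 and 12.44 (log2). The genotypes did not overlap, and KO arrays lay below the filter level of 7.24, so the KO value is not shown to be above background and the folds are those of measured values. The KO mean was 43.7 times below WT, a log2 difference of -5.45 that ranks 3 from the lowest among 11962 genes tested. CK was 12.5-fold below WT (limma adjusted p = 7.56e-11; log2 difference -3.65, SE 0.07) and 1.80 higher than KO (adjusted p = 6.08e-09). As these are bulk samples, fewer cells with Etv1 RNA and less of it per cell cannot be told apart.

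Etv4 showed the same order with smaller differences. CK arrays read 8.09, 8.02 and 7.80, KO arrays 6.95, 6.99 and 7.09, and WT arrays 8.83, 8.72 and 9.14. The genotypes did not overlap, and KO again lay under 7.24 on all 3 arrays. Etv4 fell in KO (log2 difference -1.89, SE 0.11, adjusted p = 1.40e-07) and in CK (-0.93, SE 0.11, adjusted p = 2.63e-05), and CK was higher than KO by 0.96 (adjusted p = 2.01e-05).

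Etv5 was ordered differently, with its lowest values in CK. CK arrays read 9.00, 9.00 and 8.76, KO arrays 10.43, 10.43 and 10.60, and WT arrays 10.93, 10.90 and 10.90. No arrays of different genotypes overlapped. Etv5 fell in CK by 1.99 (SE 0.07, adjusted p = 5.31e-09) and in KO by 0.42 (SE 0.07, adjusted p = 0.000825), and CK was 2.96-fold below KO (log2 difference -1.57, adjusted p = 2.55e-08). Thus the deepest loss was in KO for Etv1 and Etv4 and in CK for Etv5, and each of these CK versus KO differences passed the test.

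**Figure D2:**
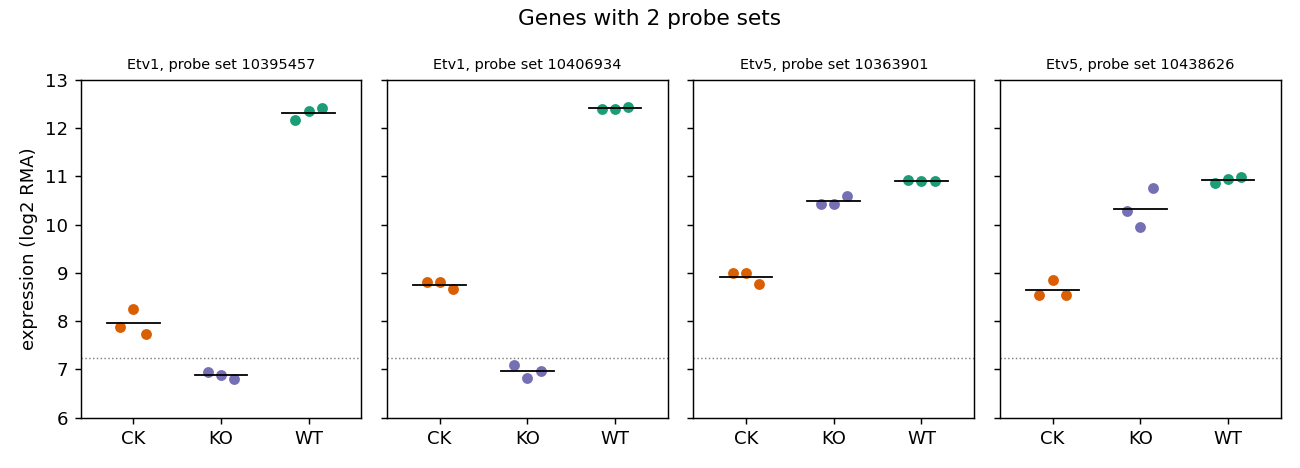
Level on each array (points, log2 RMA; line, mean of 3; dotted line, filter level of 7.24) for both probe sets of Etv1 and of Etv5 in CK, KO and WT cells. The order of the genotypes is the same on both probe sets of each gene.

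The second probe sets of Etv1 and Etv5, not used above, gave the same order of genotypes. The Etv1 probe sets differed little in mean level over the 9 arrays, 9.37 for the one used and 9.05 for the other, and those of Etv5 read 10.10 and 9.97. Probe set 10395457 of Etv1 averaged 7.96 in CK, 6.88 in KO and 12.32 in WT. On it the log2 difference from WT was -5.43 in KO and -4.36 in CK, so that CK exceeded KO by 1.07 in place of 1.80 (adjusted p = 2.66e-05). Probe set 10438626 of Etv5 averaged 8.65 in CK, 10.33 in KO and 10.93 in WT, with CK below KO (log2 difference -1.68, adjusted p = 1.06e-05).

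Dusp6, a cytoplasmic phosphatase that prefers ERK, was lowest in KO. CK arrays read 9.91, 9.84 and 9.79, KO arrays 9.37, 9.43 and 9.29, and WT arrays 10.65, 10.56 and 10.68. The 3 genotypes did not overlap. The log2 difference of KO from WT was -1.27, that is 2.41-fold lower. CK fell by 0.78 (SE 0.06, adjusted p = 1.14e-06) and lay 0.48 above KO (adjusted p = 4.46e-05).

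The nuclear phosphatases Dusp4 and Dusp5 did the opposite of Dusp6 in CK cells. Dusp4 read 8.66, 8.48 and 8.48 on CK arrays, 7.11, 7.04 and 7.14 on KO arrays, and 7.43, 7.36 and 7.18 on WT arrays. The mean of its KO and WT levels, 7.21, is under the filter level, so Dusp4 passed the filter only through its level in CK. Its difference between CK and WT is therefore given with the adjusted p of the fit without that filter. CK was 1.22 above WT (SE 0.08, adjusted p = 1.27e-06) and 1.44 above KO. The gap between CK and KO picked the gene out for a closer look, so it is given without a test. Against WT, KO read slightly lower (log2 difference -0.23, SE 0.08), with an adjusted p of 0.0299 in the filtered fit and 0.0414 without the filter. In the filtered fit this call was lost when any of 4 single arrays was left out. The adjusted p was 0.116 without WT replicate 1, 0.0893 without WT replicate 2, 0.0648 without KO replicate 1 and 0.098 without KO replicate 2. Dusp5, which acts on ERK in the nucleus, read 9.28, 9.21 and 9.18 on CK arrays, 8.31, 8.23 and 8.45 on KO arrays, and 8.31, 8.48 and 8.50 on WT arrays. It rose in CK by 0.79 (SE 0.07, adjusted p = 5.53e-06), while its KO and WT arrays overlapped (log2 difference -0.10, 95% interval -0.27 to 0.07, adjusted p = 0.297).

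Spry4, a Sprouty inhibitor of the relay like Spry1 and Spry2, stood next to Etv1 in the size of its loss. CK arrays read 9.55, 9.53 and 9.55, KO arrays 7.72, 7.63 and 7.76, and WT arrays 11.84, 11.85 and 11.99. The 3 genotypes formed separate steps with CK in the middle. Spry4 fell 18.3-fold in KO (log2 difference -4.19, SE 0.06, adjusted p = 7.71e-12) and 5.09-fold in CK (-2.35, adjusted p = 3.47e-10), and CK was 1.84 above KO (adjusted p = 1.30e-09).

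Spry1 followed the same steps. CK arrays read 10.66, 10.68 and 10.71, KO arrays 9.26, 9.35 and 8.80, and WT arrays 11.81, 11.61 and 11.64. The KO arrays were scattered (SD 0.29), yet all were below every CK array. Spry1 fell 5.87-fold in KO (log2 difference -2.55, SE 0.12, adjusted p = 3.70e-08) and 2.01-fold in CK (-1.01, SE 0.12, adjusted p = 3.72e-05).

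Spry2 was lowest in CK, like Etv5. CK arrays read 9.36, 8.99 and 8.98, KO arrays 9.60, 9.63 and 9.52, and WT arrays 10.19, 10.23 and 10.13. One CK array stood above the other CK arrays, but none reached the KO range. It fell in CK by 1.08 (SE 0.09, adjusted p = 3.10e-06) and also in KO (log2 difference -0.60, SE 0.09, adjusted p = 0.000335), and CK was lower than KO (log2 difference -0.48, adjusted p = 0.00122).

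Spred1, which blocks Ras signalling with the help of the Ras GTPase activator neurofibromin, had the smallest differences of the 10. CK arrays read 10.66, 10.67 and 10.66, KO arrays 10.73, 10.74 and 10.72, and WT arrays 10.83, 10.79 and 10.83. CK fell by 0.15 (SE 0.04, adjusted p = 0.0124). The KO difference was -0.09 (95% interval -0.19 to 0.01, adjusted p = 0.137), and CK minus KO was -0.07 (-0.17 to 0.03, adjusted p = 0.224), although the arrays of the genotypes did not overlap.

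**Figure D3:**
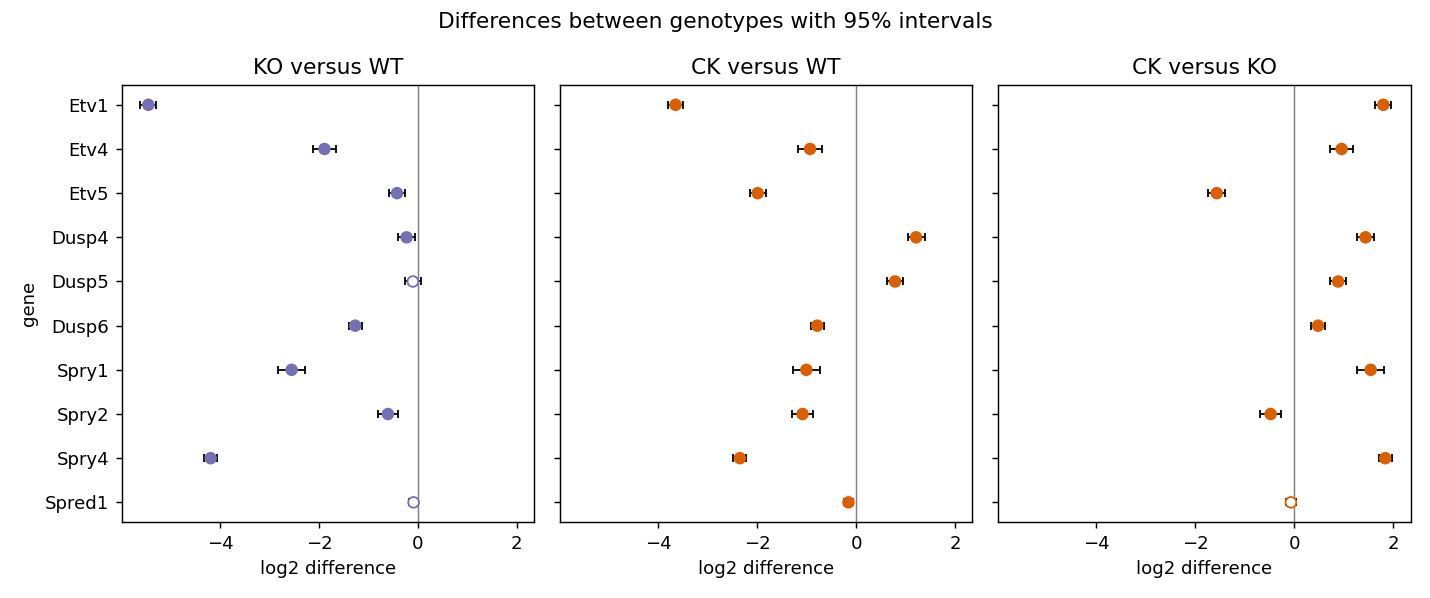
Log2 difference (points) with its 95% interval from limma for the 10 genes in each comparison. Filled points had an adjusted p under 0.05 and open points did not. Etv1 and Dusp6 in KO versus WT and Dusp4 in CK versus KO are filled too. Their filling is not to be read as a test, since these differences were known or picked out beforehand. Differences from WT reach -5.45 in KO and -3.65 in CK (both Etv1), and the rises over WT are those of Dusp4 and Dusp5 in CK.

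Counted together, all 10 genes passed the filter on dim genes, Dusp4 only through CK, and the counts include the KO values of Etv1 and Dusp6 that were known when the list was made. In KO versus WT, 8 of 10 were called lower and 0 higher by limma, all 10 differences being below 0, where 24.6% of all genes tested were called lower, 26.6% higher and 51.2% either way. Of the 10, 6 were called and at least 1.5-fold apart, against 18.0% of all genes, and the arrays of 9 did not overlap, against 60.9%. The median log2 difference of the 10 was -0.94, against 0.01 for all genes, and the median size was 0.94 against 0.20.

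In CK versus WT, 10 of 10 were called, 8 lower and 2 higher, against 62.9% of all genes called, 32.1% lower and 30.7% higher. At least 1.5-fold were 9 of 10, with 7 lower and 2 higher, against 25.3% of all genes, and the arrays of 10 did not overlap, against 67.3%. The median log2 difference was -0.97, against -0.01 for all genes. Since KO and CK were each set against the same WT arrays, these counts are not independent of each other.

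In CK versus KO, 9 of 10 were called, 7 higher and 2 lower in CK, against 62.2% of all genes, 29.5% higher and 32.7% lower. Of these, 7 differed at least 1.5-fold, 6 higher and 1 lower, against 25.7%, and the arrays of 10 did not overlap, against 67.5%. The median log2 difference was 0.92, against -0.02 for all genes. These counts and the median include Dusp4, whose gap between CK and KO picked it out and which passed the filter only through CK. The genotype means ran in the order KO, CK, WT from low to high for 5 genes (Etv1, Etv4, Dusp6, Spry1 and Spry4), with both steps called in each. They ran CK, KO, WT for Etv5, Spry2 and Spred1, where both steps were called for Etv5 and Spry2 and neither for Spred1, and KO, WT, CK for Dusp4 and Dusp5, where the step between KO and WT was called for Dusp4 only. With 3 arrays a side, the smallest two-sided p an exact permutation can give is 0.1, so single genes were tested only in the fit across all genes.

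Genes of the relay between receptor and ERK had no common direction. Of 20 listed genes for adaptors, Ras proteins and kinases 13 were measured by a probe set of their own, and the other 7 were not analysed here. In KO 3 of 13 were called higher and 2 lower, with a median of 0.07 on the log2 scale, where 51.2% of all genes were called. In CK versus WT 6 were called higher and 3 lower, with a median of 0.13, where 62.9% of all genes were called. The median size was 0.09 in KO, against 0.20 for all genes, and 0.40 in CK, against 0.28. Map2k1, which encodes the ERK kinase MEK1, rose in CK by 0.95 (adjusted p = 4.20e-06) and the Ras gene Nras by 0.72. The adaptors Shc1 and Gab1 fell in CK, with log2 differences of -0.60 and -0.55, whereas Gab1 rose in KO by 0.40. Ksr1, a scaffold of the relay, fell in KO by 0.50.

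Other brakes on receptor and MAP kinase signalling went both ways against WT. When CK was set against KO, more of them were called higher than lower, where 29.5% of all genes were called higher and 32.7% lower. Of 20 listed, 18 were tested: 6 were called higher and 6 lower in KO versus WT, 9 higher and 4 lower in CK versus WT, and 10 higher and 2 lower in CK versus KO. Of all genes 51.2%, 62.9% and 62.2% were called in these comparisons, in that order. Errfi1, an inhibitor of the EGF receptor, averaged 12.27 in CK, 10.04 in KO and 11.44 in WT, so that it fell in KO by 1.40 (SE 0.09, adjusted p = 2.79e-07) and rose in CK by 0.83. The other phosphatase genes of the list went both ways. Dusp9 rose in CK by 1.57 (adjusted p = 4.61e-08) and was not called in KO (log2 difference 0.06, adjusted p = 0.53). Dusp8 rose by 1.12 in CK and by 0.70 in KO, Dusp16 by 0.82 in CK and by 0.52 in KO, and Dusp10 by 0.29 in CK and by 1.03 in KO. Dusp1 also rose in both, by 0.33 in CK and by 0.57 in KO. Dusp14 fell in both, with log2 differences of -0.49 in CK and -0.60 in KO. Dusp7 fell in KO (log2 difference -0.34) and was not called in CK (0.12, adjusted p = 0.0765). Rasa2, a Ras GTPase activator, fell in both mutants, with log2 differences of -0.79 in CK and -0.68 in KO. Il17rd also fell in both, with log2 differences of -0.47 in CK and -0.88 in KO. Spred2 fell in KO (log2 difference -0.32) and was not called in CK (0.08, adjusted p = 0.319). Pebp1 rose by 0.87 in CK and by 0.33 in KO, and Cbl by 0.36 in CK and by 0.27 in KO.

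Among other ETS factors and the Capicua complex, Ets1 and Ets2 were higher in both mutants. Of 17 tested, 10 were called higher and 3 lower in KO versus WT, and 9 higher and 7 lower in CK versus WT. Of all genes 26.6% were called higher and 24.6% lower in KO, and 30.7% higher and 32.1% lower in CK. Ets2 averaged 12.17 in CK, 11.79 in KO and 10.08 in WT and rose by 2.09 in CK and by 1.72 in KO (adjusted p = 1.21e-08 and 5.76e-08). Ets1 rose by 1.47 in CK and by 0.59 in KO. Erg, known from endothelium and cartilage, rose in KO by 2.98 (SE 0.15, adjusted p = 4.66e-08). It averaged 7.17 in CK, under the filter level, 10.81 in KO and 7.84 in WT, and the log2 difference of CK from KO, -3.64, is one of measured values. The cartilage markers were high on the same KO arrays, and their part in this was not tested. Elk1, a target of ERK that acts with SRF, rose in CK by 0.97 and in KO by 0.66. Cic itself, chosen here for its role, averaged 10.27 in CK, 9.99 in KO and 10.13 in WT, with neither mutant called against WT (adjusted p = 0.0633 in CK and 0.0573 in KO), and CK was called 0.27 higher than KO. Atxn1, a partner of Capicua, fell in both mutants, with log2 differences of -0.60 in CK and -0.64 in KO (adjusted p = 2.27e-05 and 2.00e-05), while its paralogue Atxn1l rose in both, by 0.36 in CK and by 0.44 in KO.

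Other genes induced by ERK signalling did not share a direction. Of 16 tested, 6 were called higher and 7 lower in KO versus WT, and 8 higher and 4 lower in CK versus WT, where 51.2% and 62.9% of all genes were called. Myc rose by 1.24 in KO and by 1.23 in CK, while the ephrin receptor gene Epha4 fell in both mutants, averaging 9.01 in CK, 9.29 in KO and 10.79 in WT. Fosl1, an AP-1 subunit, averaged 10.86 in CK, 8.34 in KO and 9.96 in WT so that it fell in KO by 1.61 (SE 0.15, adjusted p = 7.85e-06) and rose in CK by 0.91. Ereg, an EGF receptor ligand, rose by 0.43 in CK and by 1.14 in KO, and the urokinase receptor gene Plaur by 1.40 in CK and by 0.25 in KO. The zinc finger factor Egr2 rose in CK by 0.85 and was not called in KO (log2 difference -0.10, adjusted p = 0.33). Egr1 rose in CK by 0.79 and fell in KO by 0.36.

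Ligands and receptors that feed the pathway differed by large amounts in both directions. Of 17 tested, 8 were called higher and 7 lower in KO versus WT, 4 higher and 10 lower in CK versus WT, and 6 higher and 8 lower in CK versus KO. Of all genes 51.2%, 62.9% and 62.2% were called in these comparisons, in that order. The median size of the difference was 1.07 in KO and 0.77 in CK, against 0.20 and 0.28 for all genes. Fgf10, a mesenchymal ligand of FGF receptor 2, averaged 8.42 in CK, 6.94 in KO and 10.65 in WT and fell, with log2 differences of -2.23 in CK and -3.72 in KO (adjusted p = 1.20e-09 and 3.09e-11). Fgf2 and Fgf7 also fell in both mutants, Fgf2 with log2 differences of -0.77 in CK and -1.94 in KO, and Fgf7 with -2.38 in CK and -1.29 in KO. Hgf averaged 10.38 in CK, 6.11 in KO and 8.71 in WT, higher in CK by 1.67 and lower in KO (log2 difference -2.60). Its receptor gene Met rose by 2.41 in CK and by 0.64 in KO (adjusted p = 5.08e-09 and 0.000165). Fgfr2 rose in KO by 1.48 and fell in CK (log2 difference -0.34). Fgf18 and Fgfr3, which act in cartilage growth, were lower in CK than in KO, with log2 differences of -3.81 and -2.48. In KO Fgf10 and Hgf read under 7.24, so their folds there are those of measured values.

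**Figure D4:**
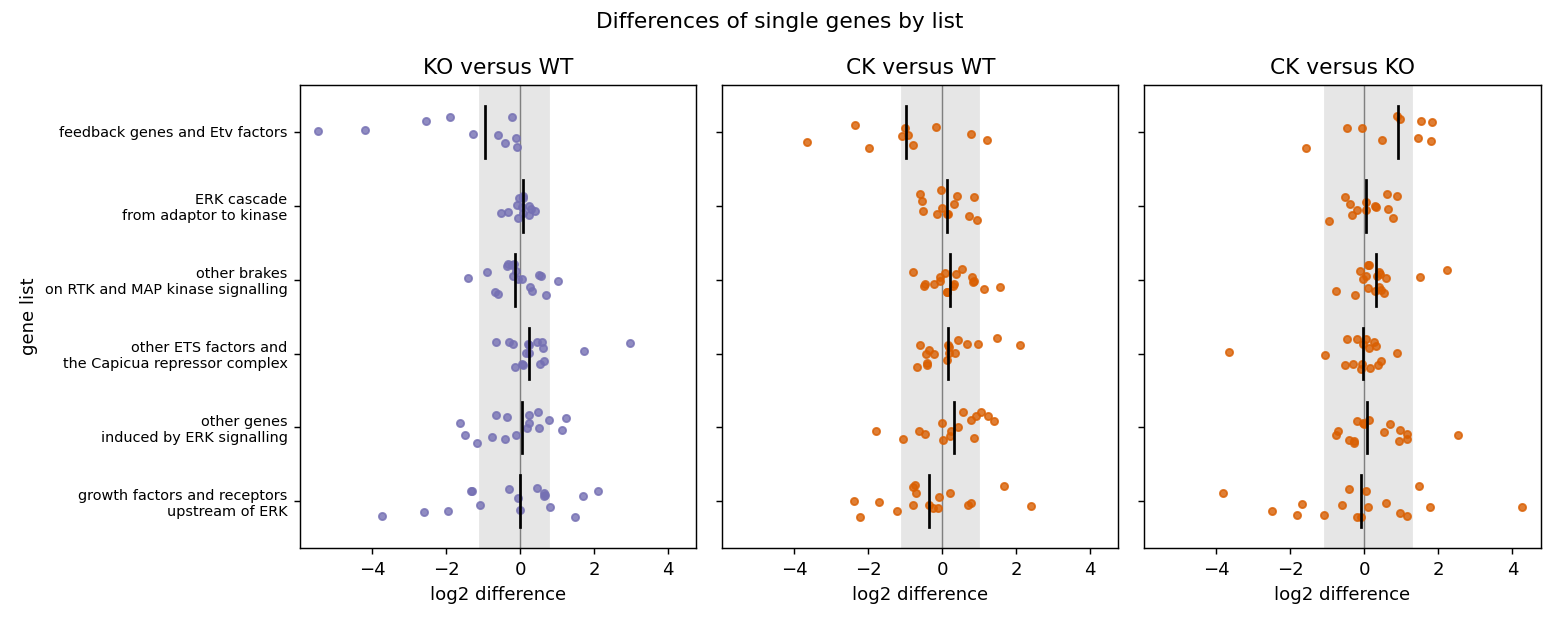
Log2 differences of single genes (points, spread vertically for clarity) in the 10 feedback and Etv genes and in 5 lists of the same pathway, for each comparison; black bars are medians and the grey band runs from the 5th to the 95th percentile of all 11962 genes tested. The median of the top row lies at -0.94 in KO versus WT and -0.97 in CK versus WT, while the other medians lie between -0.34 and 0.33 in these comparisons.

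The genes with the most similar profiles were looked up for the widest-ranging gene of each family, by the distance between profiles over the 9 arrays after each gene was centred on its mean (members left out). For Etv1, whose own distance from its mean was 6.81, the nearest were Iqgap2 at 0.55, the water channel gene Aqp1 at 0.94, and then Foxf2, Aox3 and Osr2 at 1.37 to 1.57. For Spry4, whose own distance was 5.15, they were Aox3 at 0.59, Icam1 at 0.64, Fgf10 at 0.67, Mgst1 at 0.73 and Pde7b at 0.76. Fgf10 is the ligand gene described above. For Dusp4, with a distance of 1.92 from its own mean, they were Rnf157 at 0.22, Klhl2 at 0.25, Cers6 at 0.26, Cdk18 at 0.30 and Mospd1 at 0.31. These likenesses rest on 3 genotypes and are a description of these arrays.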

How the data were processed

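The authors' deposited table holds log2 expression values made with RMA (affy package), per the submitters' processing notes; versions and filters are not given in the sources used here. RMA equalises the arrays' distributions, so a change in total RNA would not show. Depositing removed the decimal mark from every value. It was put back after the 1st digit, or after the 2nd where the string starts with 1, giving 4.28 to 14.4; the base of the logarithm rests on RMA. Array medians lay between 7.29 and 7.40.

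The platform annotation gave 1 symbol for 21640 of 34760 probe sets, updated through a RefSeq gene table (GRCm38.p6) by gene identifier. The brightest probe set stood for each of 19937 genes. Genes whose mean reached the 40th percentile, 7.24, numbered 11962 and were tested with limma 3.58.1 (R 4.3.3), 1 coefficient per genotype over 9 arrays, Benjamini-Hochberg adjusted across all of them and called under 0.05. SDs and means are over 3 arrays, whose number limits the precision. The fit was tested on simulated data. The genes, gene lists and markers were chosen with earlier results of these data known. All 10 genes are named, with up to 4 called genes per pathway list and comparison by smallest p, and the 5 nearest profiles. Other genes named (Cdkn1b, Cic and single markers) were chosen for their role. Dusp1 was added to complete the tested phosphatases of its list, and Atxn1l was added beside its paralogue Atxn1. Il17rd, Spred2, Pebp1 and Cbl were added to complete the brakes called in KO against WT.

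Alternatives covered the filter, probe set choice, scaling, variance model, array weights, threshold, a replicate block and leaving out each array. Same-numbered arrays of different genotypes deviated with correlations from -0.30 to 0.36, and differently numbered ones with correlations from -0.34 to 0.25. These overlapping ranges do not settle whether the replicate numbers pair the arrays, and the main fit treated the arrays as unpaired.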

Additional observations from a re-analysis of the deposited data

Results flagged for a closer look

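Dusp4 was picked out because its CK and KO arrays lay on opposite sides of WT. CK exceeded KO by 1.44 on the log2 scale, and all 3 CK arrays were above every KO array. The same gap picked the gene out, so it is given without a test. CK averaged 8.54, KO 7.10 and WT 7.32, so the KO and WT levels lie close to the filter level of 7.24 the KO side of the pattern is small, and the gene passed the filter only through CK.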

How the results depend on the processing

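Each count of called genes, with and without the 1.5-fold limit, stayed within 1.5 times its value under 20 other settings, 120 counts in all. The 30 differences of the 10 genes gave 606 values under these settings and the other probe sets of Etv1 and Etv5 (an alternative chosen after seeing the data). Changes of filter, threshold or variance model, the replicate block, and leaving out an array of the third genotype left each difference itself unchanged. A direction could therefore turn only under the other settings, and none did. Of the 606 values, 599 stayed on the same side of the threshold and 7 lost the call. Of those, 6 are Dusp4 in KO versus WT: the 4 left-out arrays named above, an adjusted p under 0.01, and a further quantile normalization (adjusted p = 0.254, the cause was not tested). The last is Spred1 in CK versus WT at the stricter threshold. With the replicate block the counts were 8 in KO versus WT, 10 in CK versus WT and 9 in CK versus KO, and no call of the 10 genes changed. Without a filter on dim genes 33.7% of genes were called in KO versus WT and 42.3% in CK versus WT. The table has no detection calls, so Etv1 and Etv4 in KO and Dusp4 in KO and WT, and among other genes named Erg in CK and Fgf10, Hgf and Thy1 in KO, may be at background.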
